A study of Homo sapiens with 6 samples.

Results

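The genes described here are 10 genes of the Hippo pathway and of the transcription it controls: CCN1, CCN2, ANKRD1, AMOTL1, AMOTL2, AJUBA, LATS2, TEAD1, YAP1 and FAT1. They were chosen by name, and 6 of the 10 were found among the 7150 genes in the authors' deposited table. RNA was sequenced from MDA-MB-231, an established human triple-negative breast cancer cell line of wild-type genotype per the labels. There were 3 untreated control libraries and 3 libraries of cells given 0.5 µM shikonin, a plant naphthoquinone, for 24 h, the dose being read as micromolar. No source used here names a vehicle for the control cells. The labels do not say whether libraries of 1 group were grown as separate cultures, so the p-values reflect the spread among these libraries, which may be technical. In bulk RNA, fewer cells of a kind and less RNA per cell cannot be told apart.

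The table gives 1 comparison, shikonin against control, and lists genes past both of the authors' DESeq2 thresholds, a fold over 1.5 and an adjusted p under 0.05. It has no values for single libraries, so neither the level in each sample nor the overlap between groups can be shown, and depth is unknown. Positive values carry the mark "up" and are read as higher in shikonin. A gene that is not listed either missed a threshold or was not tested, and its level is not known here. Of the markers of the labelled cell type, VIM was listed with a mean of 64429 normalized counts over the 6 libraries. Of 6 mesenchymal markers 3 were listed, VIM and SPARC higher and ZEB1 lower, with a summed implied mean (a group mean solved from the mean over all libraries and the fold change) of 47793 in control and 82405 in shikonin, nearly all of it VIM. Of 7 luminal markers 4 were listed, all higher, with a summed implied mean of 22252 in control and 59891 in shikonin. CDH1, ESR1 and GATA3 were not listed, nor were the 4 fibroblast markers COL1A1, COL1A2, DCN and LUM. Of 3 immune markers only CD68 was listed, at 2717 and 4295. The part of these markers in the results below was not tested.

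The Hippo pathway is a kinase cascade that restrains cell growth. Its upstream kinases activate LATS1 and LATS2, which phosphorylate the coactivator YAP1 and its paralog TAZ (gene WWTR1) and so keep them in the cytoplasm or mark them for breakdown. Unphosphorylated YAP1 enters the nucleus, binds the TEAD factors and raises genes such as CCN1, CCN2 and ANKRD1. Several targets, among them AMOTL2 and LATS2, encode inhibitors of YAP1 and form a feedback loop. MDA-MB-231 cells are known for high YAP1 activity and for an inactivating mutation of NF2, an upstream regulator of the cascade.

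Shikonin-treated cells had less RNA of YAP1, of its DNA-binding partner TEAD1 and of the upstream regulators FAT1, AMOTL1 and AMOTL2, while the target gene ANKRD1 rose. The rise of ANKRD1 no longer passed the fold threshold under either rescaling described below. By principal transcript, ANKRD1, AMOTL2 and YAP1 lay near the middle of the listed genes of their length. FAT1 and TEAD1 fell furthest, to 10.3% and 22.0% of the control level. Of the 10 genes, 5 were lower and 1 was higher. Among about 14254 genes tested, 24.7% were lower and 25.5% higher by the same rule, or 50.2% in either direction. The median log2 fold change of the 6 listed members in the authors' deposited table was -1.40, against 0.60 for all listed genes. No listed gene had a log2 fold change below 0.585 in size. With 3520 listed genes lower and 3630 higher, the 0.60 lies at the edge of that gap and is not a typical shift. CCN1, CCN2, AJUBA and LATS2 were not listed. Standard errors of the log2 fold changes of the 6 lay between 0.13 and 0.22.

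**Figure D1:**
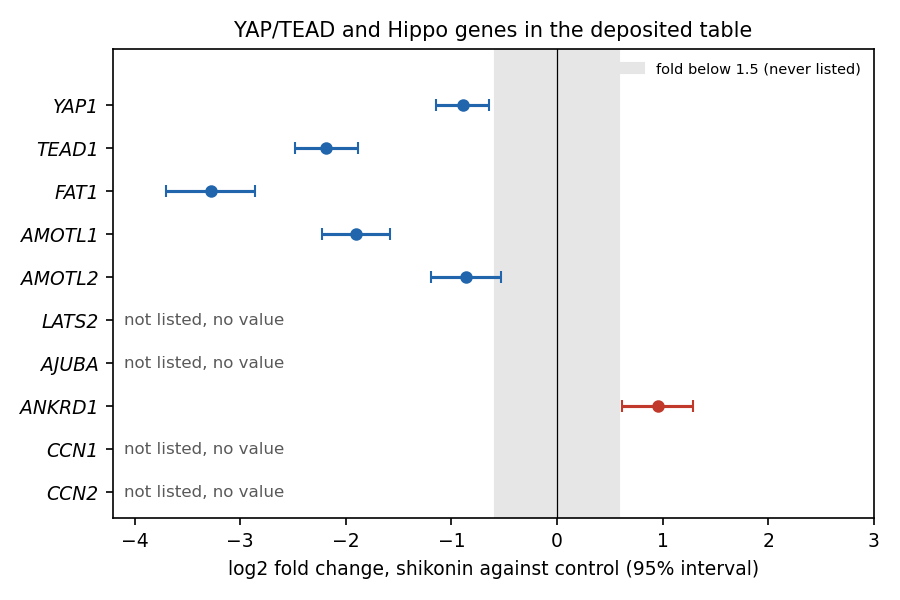
Log2 fold change (shikonin against control, horizontal axis) of the 10 genes in the authors' deposited table, points with 95% intervals from the listed standard error. The 5 blue genes lie below zero, ANKRD1 (red) above it, and the 4 genes without a point were not listed; the grey band marks folds too small to be listed.

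For YAP1 (ENSG00000137693), the coactivator itself, the implied mean was 4856 normalized counts in control cells and 2616 in shikonin. YAP1 was thus 1.86-fold lower (95% interval 1.56 to 2.21). Its log2 fold change in the authors' deposited table was -0.89 (standard error 0.13, adjusted p = 2.61e-11). The gene has 9 exons on chromosome 11, 102110461 to 102233423 (GRCh38, GENCODE 29). An antisense gene, AP000942.2, overlaps 9.97% of its annotated exonic bases; whether reads were counted by strand is not stated. Its paralog WWTR1, which encodes TAZ, fell in the authors' deposited table by 1.51-fold (1.24 to 1.83), just past the fold threshold. Per kilobase of principal transcript, the implied level of YAP1 was 902 normalized counts in control and 486 in shikonin, and that of WWTR1 356 and 236. The 95% intervals of their fold changes overlapped.

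TEAD1 (ENSG00000187079) encodes a factor that brings YAP1 to DNA. Its implied mean was 3606 normalized counts in control and 793 in shikonin. This is 4.55-fold lower (3.69 to 5.59). The log2 fold change in the authors' deposited table was -2.18 (standard error 0.15, adjusted p = 3.40e-44). TEAD1 ranked 245 by fold among the 3520 lower genes. It lies on chromosome 11, 12674591 to 12944483. TEAD2, a paralog that binds the same DNA motif, went the other way. It rose in the authors' deposited table by 1.73-fold (1.35 to 2.22, adjusted p = 3.68e-05), from an implied 344 normalized counts to 596. Per kilobase, the implied level of TEAD1 was 1173 in control against 159 for TEAD2, and 258 against 275 in shikonin, with the principal transcript as length. This comparison depends on the transcript chosen, since that of TEAD1 has 3075 nt and its longest annotated one 8477 nt. TEAD2 stayed above zero under both rescalings described below, with log2 fold changes of 0.40 and 0.19, values that no longer passed the fold threshold. TEAD3 and TEAD4 were not listed. VGLL4, which encodes a protein that competes with YAP1 for TEAD factors, fell in the authors' deposited table by 2.74-fold (2.24 to 3.34).

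**Figure D2:**
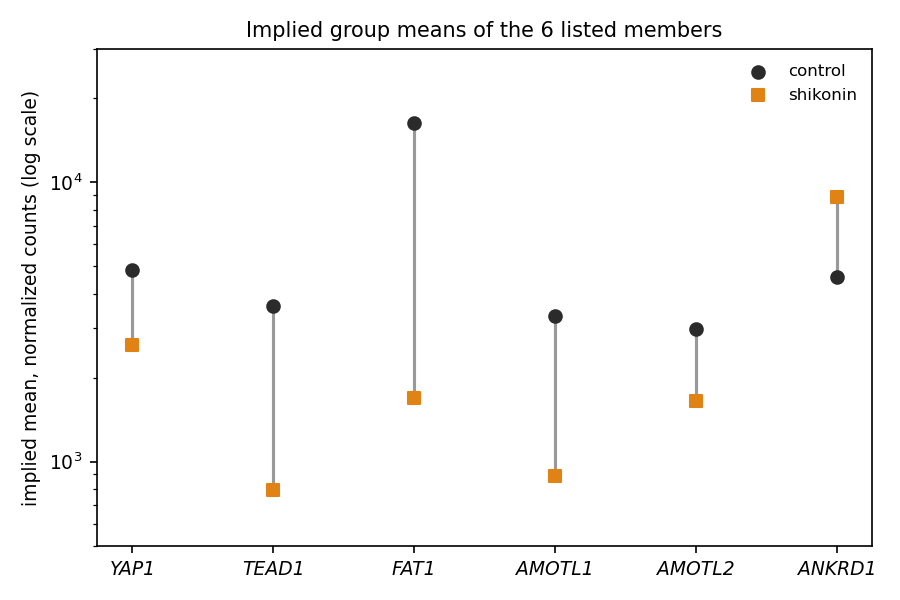
Implied group means in normalized counts (vertical axis, log scale) of the 6 listed members, circles for control and squares for shikonin, derived from the authors' mean and fold change. FAT1 drops from 16372 to 1690 and TEAD1 from 3606 to 793, while ANKRD1 goes from 4587 to 8887; no error bars are drawn because single libraries are not given.

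FAT1 (ENSG00000083857), an atypical cadherin that acts at the cell surface upstream of the kinase cascade, went from an implied 16372 normalized counts in control to 1690 in shikonin. The decrease was 9.69-fold (7.23 to 13.0). The log2 fold change of FAT1 in the authors' deposited table was -3.28 (standard error 0.22, adjusted p = 6.24e-50). Only 27 of the 3520 lower genes had a larger fold. FAT1 spans 27 exons on chromosome 4, 186587783 to 186726722, and 93.1% of its 14786 nt principal transcript is coding. FAT4, its paralog, fell in the authors' deposited table by 2.54-fold (1.76 to 3.67), and its interval did not overlap that of FAT1. FAT2 and FAT3 were not listed.

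AMOTL1 (ENSG00000166025) and AMOTL2 (ENSG00000114019) encode angiomotin-like scaffold proteins that hold YAP1 at cell junctions and in the cytoplasm. AMOTL1 went from an implied 3317 normalized counts in control to 888 in shikonin. It was thus 3.74-fold lower (3.00 to 4.66), at a log2 fold change in the authors' deposited table of -1.90 (standard error 0.16, adjusted p = 8.40e-30). AMOTL2 went from 2997 to 1653 normalized counts. That is 1.81-fold lower (1.44 to 2.28), at a log2 fold change in the authors' deposited table of -0.86 (standard error 0.17, adjusted p = 1.32e-06). The 95% intervals of the 2 fold changes did not overlap, but the difference itself was not tested. AMOTL1 lies on chromosome 11 (94706431 to 94876753) and AMOTL2 on chromosome 3 (134355874 to 134375479). AMOT, the founding member of the family, was not listed.

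LATS2, a kinase that phosphorylates YAP1 and is itself a YAP1 target, was not listed. Its paralog LATS1 fell in the authors' deposited table by 4.18-fold (3.12 to 5.59, adjusted p = 1.58e-20), from an implied 713 normalized counts to 171. AJUBA, a LIM-domain scaffold that binds and inhibits LATS kinases, was also not listed. Of its relatives, LIMD1 fell in the authors' deposited table by 3.27-fold (2.69 to 3.97) and WTIP by 1.73-fold (1.32 to 2.28).

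ANKRD1 (ENSG00000148677), which encodes an ankyrin repeat protein and is a standard readout of YAP1 activity, was the only listed member that rose. Its implied mean was 4587 normalized counts in control and 8887 in shikonin. The increase was 1.94-fold (1.53 to 2.45). Its log2 fold change stood at 0.95 in the authors' deposited table (standard error 0.17, adjusted p = 1.21e-07). The gene has 9 exons on chromosome 10, 90912096 to 90921276. Whether it passed the fold threshold depends on the scaling. The log2 fold change was 0.56 with equal implied totals and 0.35 with the median of listed genes at zero. Both stayed above zero but under the fold threshold. CCN1 (chromosome 1, 85580761 to 85583962) and CCN2 (chromosome 6, 131948176 to 131951373), which encode secreted matricellular proteins and are the most used YAP1 readouts, were not listed, so no direction is known for them here.

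The sequences before the start sites are shown for ANKRD1, CCN2, AMOTL2 and YAP1, which hold the core TEAD motif CATTCC there. CCN2 has no known direction here because it was not listed. RefSeq promoter entries (GRCh38.p14) were matched for 8 of the 10 genes by symbol, with 11 start sites; CCN1 and TEAD1 were missing. Each run gives the 250 bases before the start, 5′ to 3′ on the strand of the gene. Capitals mark CATTCC or its reverse complement, and in ANKRD1 also 1 match to TGANTCA, which overlaps no TEAD match. TGANTCA is a loose form of the AP-1 motif that allows any central base, and the match in ANKRD1 reads TGATTCA. The windows are chr10:90921088-90921337 for ANKRD1 (minus strand), chr6:131951373-131951622 for CCN2 (minus strand), chr3:134374448-134374697 for AMOTL2 (minus strand) and chr11:102110197-102110446 for YAP1 (plus strand).
ANKRD1: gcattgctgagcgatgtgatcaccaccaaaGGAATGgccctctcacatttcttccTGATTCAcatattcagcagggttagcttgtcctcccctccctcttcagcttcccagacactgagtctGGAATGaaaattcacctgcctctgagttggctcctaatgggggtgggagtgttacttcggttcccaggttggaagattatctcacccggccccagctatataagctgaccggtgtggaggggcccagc
CCN2: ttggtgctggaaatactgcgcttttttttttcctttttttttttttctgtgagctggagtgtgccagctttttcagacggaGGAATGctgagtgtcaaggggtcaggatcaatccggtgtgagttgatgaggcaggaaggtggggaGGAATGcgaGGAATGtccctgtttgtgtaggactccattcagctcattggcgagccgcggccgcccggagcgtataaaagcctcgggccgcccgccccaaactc
AMOTL2: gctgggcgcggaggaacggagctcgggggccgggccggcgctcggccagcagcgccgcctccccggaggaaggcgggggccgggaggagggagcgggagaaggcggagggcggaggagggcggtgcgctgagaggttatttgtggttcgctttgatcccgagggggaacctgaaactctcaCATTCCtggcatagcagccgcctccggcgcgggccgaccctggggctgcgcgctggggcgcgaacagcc
YAP1: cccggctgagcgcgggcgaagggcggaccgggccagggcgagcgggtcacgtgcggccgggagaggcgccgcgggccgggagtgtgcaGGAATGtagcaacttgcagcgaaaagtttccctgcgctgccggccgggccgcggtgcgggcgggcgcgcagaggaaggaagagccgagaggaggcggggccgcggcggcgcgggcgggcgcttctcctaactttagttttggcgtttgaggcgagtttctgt

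CCN2 held 3 matches, beginning 169, 104 and 95 bases before its start, and ANKRD1 held 2, at 220 and 128 bases. AMOTL2 held 1 match at 69 bases, in 1 of its 2 start sites, and YAP1 held 1 at 162 bases. AJUBA, not printed, held 1 match in 1 of 2 start sites, and none was found in the windows of AMOTL1, FAT1 or LATS2. Of all 35116 promoter entries, 11.9% held at least 1 CATTCC on either strand in the same 250 bases, 0.940% held 2 or more and 0.0826% held 3 or more. TGANTCA was found in 6.57%. Of the listed members with a match, ANKRD1 rose while AMOTL2 and YAP1 fell, so genes with the motif went both ways. A match is a description of letters and not a measured binding site.

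On the per-kilobase scale, ANKRD1 had the highest implied level of the 6 in both groups, 2318 normalized counts in control and 4491 in shikonin. TEAD1, FAT1 and YAP1 followed in control, at 1173, 1107 and 902. In shikonin the order was YAP1 (486), AMOTL2 (368) and TEAD1 (258), and FAT1, at 114, was close to AMOTL1, the lowest at 98.9. Without values for single libraries it cannot be said which neighbours in this order differ beyond their spread. The level of TEAD1 per length depends on its transcript, since the principal one has 3075 nt and the longest annotated one 8477 nt.

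Beyond the members, 114 genes of the pathway in 6 groups were looked up, and most of those listed were lower. Of the 114, 49 (43.0%) were lower and 14 (12.3%) higher, against 24.7% and 25.5% of the genes tested, and 51 were not listed. Shares of the 114, and of each group below, count every gene looked up, some of which may not have been tested. Their median log2 fold change in the authors' deposited table was -0.97. The listed ones had a median mature length of 5068 nt, against 3232 nt for all listed genes. Across the table the share of lower genes went from 2.31% in the decile of shortest transcripts to 95.5% in that of the longest, and the part of length in these counts was not tested.

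**Figure D3:**
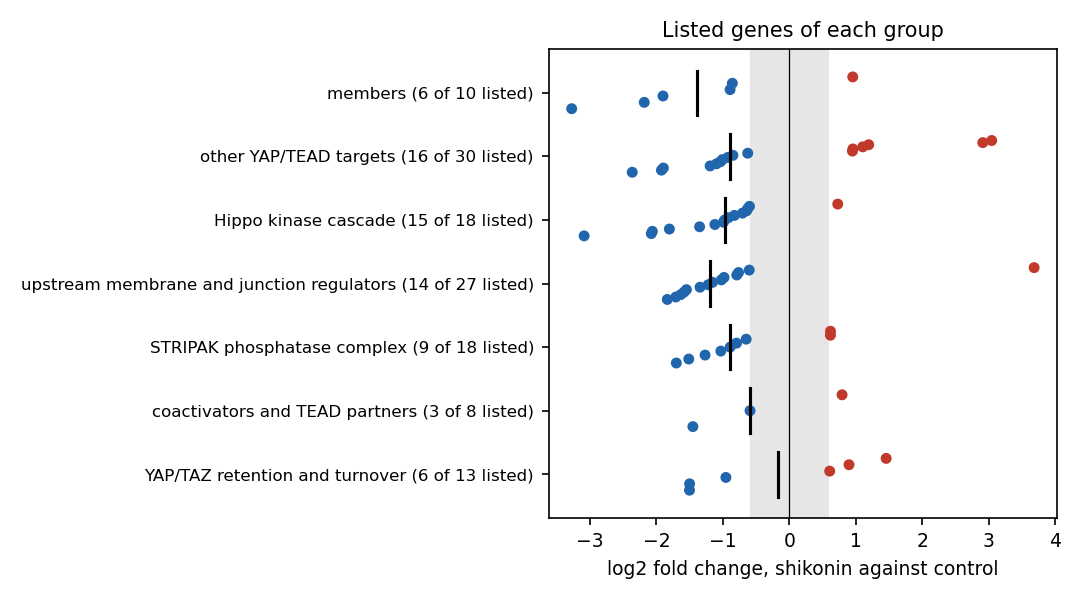
Log2 fold change (horizontal axis, shikonin against control) of every listed gene in the members and the 6 other groups, from the authors' deposited table; the black bar is the median and points are spread vertically only for legibility. In the kinase cascade 14 of 15 listed genes lie below zero, where 49.2% of all listed genes do. The group of retention and turnover genes is split 3 and 3, so that its median falls between the 2 sides.

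Most genes of the kinase cascade fell. Of its 18 genes, 14 were lower (77.8%) and 1 higher (5.56%), against 24.7% and 25.5% of all genes tested. The listed genes of the cascade had a median mature length of 4961 nt, and 93.3% of them were lower. In the length decile that holds 4961 nt, 83.1% of listed protein-coding genes were lower. The part of length in these counts was not tested. The higher gene, MAP4K2, rose in the authors' deposited table by 1.66-fold (1.32 to 2.08). TAOK1, which encodes a kinase that activates MST1 and MST2, fell in the authors' deposited table by 8.51-fold (6.70 to 10.8). MOB1B, which encodes a LATS coactivator, fell in the authors' deposited table by 4.22-fold (3.22 to 5.53). MST1 itself (gene STK4) was also among the lower genes, and MST2 (gene STK3) was not listed. With equal implied totals MAP4K2 no longer passed the threshold, while the 14 lower genes could only stay past it.

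Membrane and junction regulators followed, with 13 of 27 lower (48.1%) and 1 higher (3.70%), against 24.7% and 25.5% of all genes tested. DLG5, a scaffold of cell junctions, fell in the authors' deposited table by 3.57-fold with a wide interval (1.82 to 7.02), and WWC3, a KIBRA family scaffold, by 3.10-fold (2.45 to 3.92). The higher gene, CRB3, a polarity determinant, had a mean of 16.2 normalized counts over all libraries. It was named after its values were seen, since it fell below the minimum mean of 100 set for named genes.

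The STRIPAK complex is a PP2A phosphatase assembly that turns off MST kinases. Of its 18 genes 7 were lower (38.9%) and 2 higher (11.1%), against 24.7% and 25.5% of all genes tested. The genes STRN, which encodes the scaffold striatin, and CTTNBP2NL fell in the authors' deposited table by 3.25-fold (2.60 to 4.07) and by 2.86-fold (2.21 to 3.70). The catalytic subunit genes PPP2CA and PPP2CB rose in the authors' deposited table by 1.54-fold (1.30 to 1.81) and by 1.53-fold (1.26 to 1.86), and neither passed the fold threshold with equal implied totals.

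Genes for retention and turnover of YAP1 and TAZ were split, 3 lower (23.1%) and 3 higher (23.1%) of 13, shares close to the 24.7% and 25.5% of all genes tested. SFN, which encodes 14-3-3 sigma, a protein that can hold phosphorylated YAP1 in the cytoplasm, rose in the authors' deposited table by 2.75-fold (2.05 to 3.67). YWHAH, another 14-3-3 gene, rose in the authors' deposited table by 1.52-fold (1.28 to 1.82) and OTUB1, a deubiquitinase gene, by 1.86-fold (1.55 to 2.23). BTRC and FBXW11, which encode the F-box proteins that mark phosphorylated YAP1 for breakdown, fell in the authors' deposited table by 2.83-fold (2.19 to 3.67) and by 1.94-fold (1.59 to 2.37). USP9X, also a deubiquitinase gene, fell in the authors' deposited table by 2.83-fold (2.21 to 3.63). With equal implied totals SFN stayed above the fold threshold, while YWHAH and OTUB1 did not.

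Other targets of YAP1 and TEAD moved in both directions, 10 lower (33.3%) and 6 higher (20.0%) of 30, against 24.7% and 25.5% of all genes tested. With equal implied totals 4 of the 6 stayed higher, and with the median of listed genes at zero 3 did. Of all genes tested, 16.8% and 13.2% were higher under these 2 rescalings. PTPN14, which encodes a phosphatase that itself binds and restrains YAP1, fell in the authors' deposited table by 5.15-fold (4.16 to 6.38). DOCK5 and ARHGEF17, both guanine nucleotide exchange factors, fell in the authors' deposited table by 3.80-fold (2.97 to 4.86) and by 3.72-fold (3.06 to 4.53). GADD45A, a stress-response gene with other known inducers, rose in the authors' deposited table by 7.52-fold (5.91 to 9.57). EDN1, which encodes endothelin-1, and CAVIN2, a caveolar coat gene, rose in the authors' deposited table by 2.29-fold (1.84 to 2.85) and by 2.15-fold (1.65 to 2.80), the latter no longer past the fold threshold with the median at zero. The classical targets AXL, F3, NT5E, NUAK2, TGFB2 and THBS1 were among the 14 not listed.

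Length was set beside each member by ranking its log2 fold change among the 692 listed protein-coding genes in its own decile of mature length. ANKRD1 stood at percentile 52.3 of its decile, in which 18.6% of genes were lower. AMOTL2 stood at 49.1 and YAP1 at 63.2, in deciles with 83.1% and 88.3% lower. These 3 genes thus lay near the middle for genes of their length, and AMOTL1, at 31.9 of the decile of longest transcripts, below it. FAT1 stood at 0.578 in that decile, of which 95.5% was lower. TEAD1 stood at 1.30 in a decile with 36.1% lower, but at 17.9 of the decile of longest transcripts when its longest annotated transcript set its length, a choice made after the annotation was seen. Among the pathway genes, the lower ones had a median of 5507 nt and the higher ones 2099 nt. Of the 63 listed pathway genes outside the members, 39 stood below percentile 50 of their own decile and 24 above. Their median percentile was 40.6. These percentiles are descriptions, and the part of length in the changes was not tested.

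**Figure D4:**
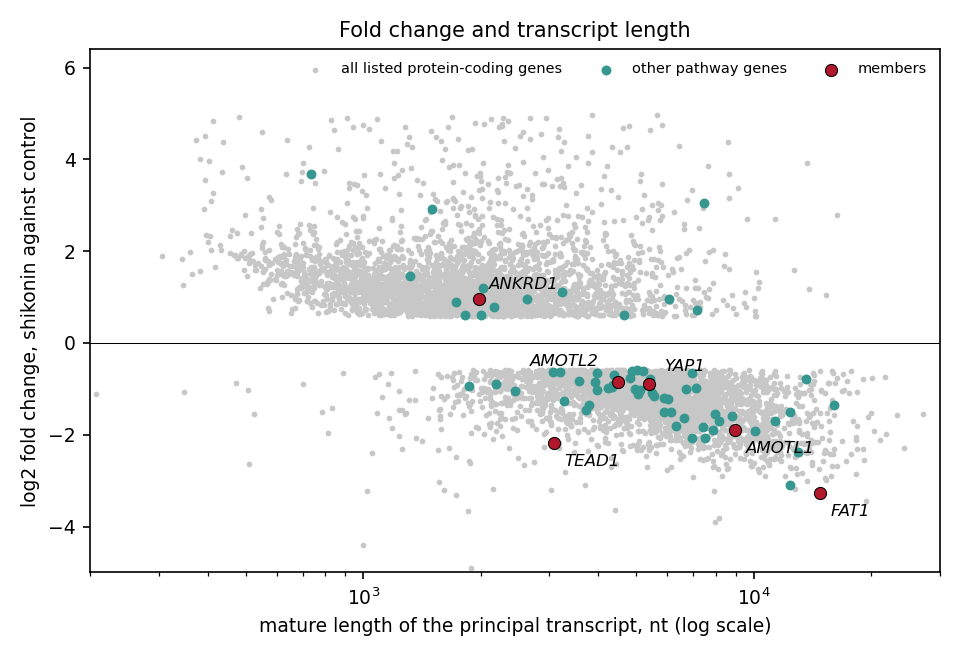
Log2 fold change in the authors' deposited table (vertical axis) against mature length of the principal transcript in nt (horizontal axis, log scale) for 6815 listed protein-coding genes (grey), other pathway genes (green) and the listed members (red); another 105 genes beyond a log2 fold change of 5 in size are not drawn. By this length, FAT1 and TEAD1 lie along the lower edge of genes of their length, and ANKRD1 and YAP1 lie within the bulk. For TEAD1 this depends on the transcript, since its longest annotated one put it at percentile 17.9 of its decile.

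At a fold of at least 2, 3 members were lower (FAT1, TEAD1 and AMOTL1) and 0 higher, where 14.6% and 16.4% of the genes tested were lower and higher. With the 95% interval wholly beyond 2-fold, the same 3 members were lower and 0 higher, against 7.25% and 8.43%. With equal implied totals of the listed genes in both groups, which lowers every log2 fold change by 0.39, the 5 lower members stayed and ANKRD1 dropped out, against 24.7% lower and 16.8% higher. With the median of listed genes set to zero, a shift of 0.60, the outcome for the members was the same, against 24.7% and 13.2%. That median lies at the edge of the gap around zero that the fold threshold leaves. Both shifts can only add lower genes, and those not listed are not known, so the shares of lower genes under them are minima.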

How the data were processed

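RNA of 3 control and 3 shikonin samples of MDA-MB-231 was made into libraries with a NEBNext Ultra kit, per the labels' protocols. Tools named in the submitters' processing notes are fastp, HISAT2 2.0.5 and DESeq2, with build hg38; read counter, annotation and strand were not given. In the authors' deposited table the mean normalized count is a signal averaged over libraries. The log2 fold change with its standard error, the Wald score, the p-value and the adjusted p are likewise the authors', per the file headers. No values for single libraries are held (0 columns), so no count test was run.

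From rank, p and adjusted p over ranks 6 to 60, 14254 genes tested were recovered (14192 to 14306), a step tested on simulated data. Implied means weigh both groups equally, and 95% intervals are normal. GENCODE 29 gave models for 7142 genes by Ensembl identifier, with the longest APPRIS principal transcript as mature length. Members were matched by identifier, so older symbols would have been found. All 10 members were named, and of each other group the 3 largest changes per direction at a mean of 100 normalized counts or more, plus paralogs of members; 1 gene under this rule is not reported here. Members and lists were chosen with earlier results of these data known. Alternatives were a fold of 2, an adjusted p of 0.001, a mean of 100, an interval beyond 2-fold, 2 rescalings and other transcript choices. Python 3.11.15 and pandas 2.3.3 were used.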

Additional observations from a re-analysis of the deposited data

How the results depend on the processing

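Both rescalings lower every log2 fold change, so the 5 lower members could not change direction under them. All 5 stayed listed at an adjusted p below 0.001. The minimum mean of 100 normalized counts could remove none, since the lowest mean of a listed member was 2102. At a fold of at least 2, 14.6% of the genes tested were lower and 16.4% higher. By that rule 3 of the 10 members were lower and 0 higher, and 29 of the 114 other pathway genes lower and 6 higher. With the 95% interval beyond 2-fold these counts were 3, 0, 16 and 3, against 7.25% lower and 8.43% higher of all genes tested. With equal implied totals 0 members and 6 other pathway genes were higher, against 16.8% of all genes tested. With the median of listed genes at zero these were 0 and 5, against 13.2%. By construction, fewer genes can pass a stricter rule, and a downward shift can only remove higher genes and add lower ones. With the longest annotated transcript the percentile within the length decile became 40.3 for ANKRD1, 38.2 for AMOTL2, 48.6 for YAP1 and 17.9 for TEAD1. No paired analysis was possible because the table holds no values for single libraries; leaving out replicates was not run for the same reason. Depth is unknown, and how much it limits the listing of CCN1, CCN2, AJUBA and LATS2 cannot be told from these data.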
